A study of Mus musculus with 8 samples.

Results

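In cold-exposed inguinal white adipose tissue of mice, 644 genes had transcripts with a long 3′ untranslated region (3′ UTR), out of 16674 genes in the RNA-seq tables and 10227 genes at the same expression threshold (6.30%). These genes were chosen by 3 values of the RNA-seq tables. The deposited transcript had to extend at least 4000 bases past the coding end, the coding region had to start before base 600, and RNA-seq had to give at least 1 RPKM (the per-kilobase, per-million density of reads) in all 4 libraries. The other 9583 genes at that threshold are called the remaining genes. All mice were male C57BL/6 animals of 9 weeks held at 4 °C for 7 days. Y1CTL mice were Ythdf1 flox/flox, with exon 4 of Ythdf1 flanked by loxP sites, and Y1cKO mice carried the same floxed alleles plus Adipoq-Cre, a Cre driven by the adiponectin promoter, which is active in adipocytes and not in the other cells of the tissue. Each genotype had 2 RNA-seq libraries of polyadenylated RNA and 2 Ribo-seq libraries of ribosome-protected fragments. By the labels, each tissue lysate was split between the assays. Nothing says that replicates came from separate animals, so p-values measure the spread between these libraries only.

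The 3′ UTR lies between the stop codon and the poly(A) tail. It is not read by ribosomes and holds binding sites for miRNAs and for proteins that set the stability, place and translation of the mRNA. N6-methyladenosine (m6A), a methyl mark on adenosine in mRNA, is often found near stop codons and in 3′ UTRs, and YTHDF1 is a cytosolic protein that binds m6A and is known for promoting the translation of bound mRNAs. Transcripts with long 3′ UTRs are therefore a class in which footprint density and its change without Ythdf1 can be compared with other transcripts. No map of m6A was used here, and the class was defined by length alone.

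The RNA-seq libraries held 3958284 and 4963613 assigned reads in Y1CTL and 12211351 and 16429015 in Y1cKO, and the Ribo-seq libraries held 7364523 to 11862838. Adipocyte markers (14 genes) had a median of 383 to 768 RPKM in RNA-seq. The median of 24 lymphocyte markers was 14.7 RPKM in the second Y1CTL RNA-seq library, no more than 0.206 RPKM in the rest of RNA-seq and 43.1 to 53.6 RPKM in Ribo-seq. That of 20 skeletal muscle markers was 12.5 RPKM in the first Y1cKO RNA-seq library and no more than 0.0755 RPKM in its 3 counterparts. In Ribo-seq the muscle markers had a median of 0.0579 to 0.315 RPKM, with 0.121 RPKM in the first Y1cKO library. The markers thus differed between assays of the same number, where the labels give 1 lysate. The 10 macrophage markers had a median of 8.54 to 11.8 RPKM in RNA-seq and 108 to 160 RPKM in Ribo-seq. For 8 fibroblast markers it was 13.4 to 38.1 and 113 to 213 RPKM, and for 8 endothelial markers 11.3 to 21.0 and 19.4 to 29.7 RPKM. The part of cell content in the ratio of Ribo-seq to RNA-seq was not tested. Of the lymphocyte list 0 genes and of the muscle list 2 passed the RNA-seq threshold of the rule, and 0 of either belonged to the long 3′ UTR genes. Ythdf1 itself had 8.01 and 11.5 RPKM in Y1CTL and 7.17 and 7.98 RPKM in Y1cKO RNA-seq (limma adjusted p = 0.587). In Ribo-seq it had 17.3 and 15.99 RPKM in Y1CTL and 12.7 and 15.7 RPKM in Y1cKO (limma adjusted p = 1.00). The RNA-seq values are over its whole transcript and all are of whole tissue, where fewer cells of a type and less RNA per cell cannot be told apart.

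The 3′ part that defined the class had a median of 5043.5 bases, stop codon included, and made up a median of 74.9% of the transcript, against 34.0% in the remaining genes. In 314 genes it was shorter than 5000 bases, in 147 it was 5000 to 6000, in 118 it was 6000 to 8000, in 36 it was 8000 to 10000, and in 29 it was 10000 bases or more. The coding regions were of ordinary size, with a median of 1564.5 bases against 1389 in the remaining genes. The longest was that of D10Wsu102e, at 122586 bases behind a coding region of 555 bases. Next among genes with footprints came Hnrnpr, a nuclear RNA-binding protein, with 19422 bases, Zbtb37, a zinc finger protein, with 17002, Aak1, a kinase of clathrin-mediated uptake, with 15928, and Serbp1, an RNA-binding protein found on ribosomes, with 13780. At the length threshold lay Zfp266 (4000 bases) and Tnfsf10 (4001) on the inside and Tsc1 (3997) on the outside, with Endov between them. At the coding start they were Slc35a3 and Trim33 (both 586) inside and Mgat5 (602) and 4930523C07Rik (605) outside. At the expression threshold the lowest RNA-seq values were 1.01 RPKM for Mars2 and 1.02 for Dnal1 inside, and 0.991 for 2310057M21Rik and 0.989 for Thsd7a outside.

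Transcripts with long 3′ UTRs were less abundant than the remaining transcripts in both assays. Their median was 5.78 to 6.53 RPKM in the 4 RNA-seq libraries, where the remaining genes had 8.14 to 9.75 RPKM. In Ribo-seq, whose RPKM counts footprints per kilobase of coding region, the median was 11.6 to 12.4 RPKM against 15.6 to 16.2 RPKM. On the log2(RPKM + 0.5) scale the difference was −0.38 and −0.47 in Y1CTL and −0.54 and −0.52 in Y1cKO RNA-seq. In Ribo-seq it was −0.39 and −0.40 in Y1CTL and −0.41 and −0.37 in Y1cKO. The long 3′ UTR genes lay lower in 8 of 8 libraries, and by a like amount in both assays. They took 4.74% to 5.43% of the RNA-seq reads and 2.54% to 2.71% of the Ribo-seq reads. Because they are long, their median number of RNA-seq reads was nevertheless higher, at 44.4 RPM (the per-million count of reads, with no length) against 26.0 RPM in the remaining genes.

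**Figure D1:**
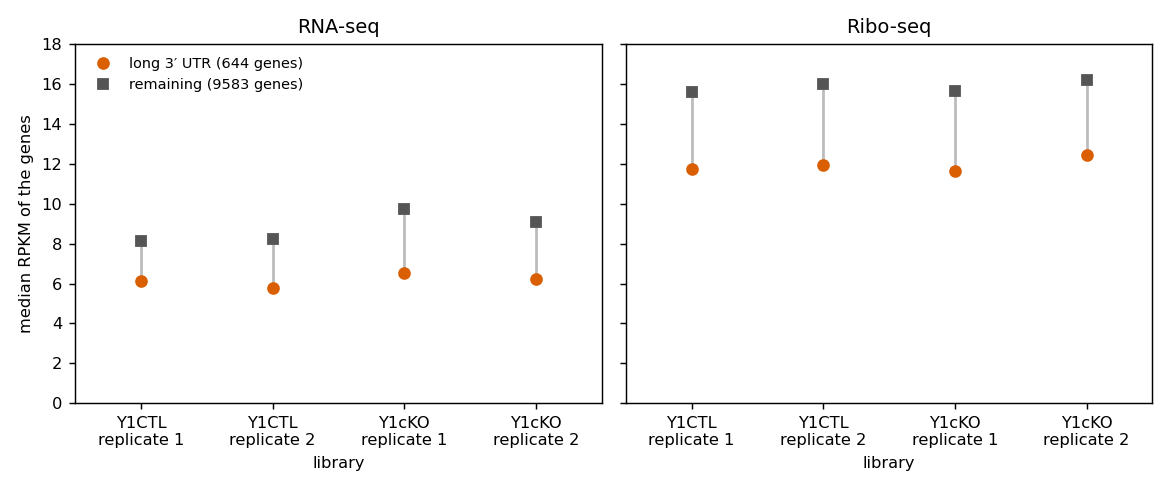
Median RPKM over the 644 long 3′ UTR genes (circles) and over the 9583 remaining genes (squares) in each of the 4 RNA-seq libraries (left) and the 4 Ribo-seq libraries (right). The circles sit at 5.78 to 6.53 RPKM in RNA-seq and at 11.6 to 12.4 RPKM in Ribo-seq, below the squares in every library.

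The most abundant transcripts of the class were Elovl6, a fatty acid elongase of lipid synthesis, Tns1, a focal adhesion protein, and Sh3pxd2a, a scaffold of podosomes. Elovl6 had 292 and 343 RPKM in Y1CTL and 181 and 219 RPKM in Y1cKO RNA-seq. Tns1 had 170 and 143 RPKM in Y1CTL and 211 and 229 RPKM in Y1cKO. Lrrc58, Pank3, a pantothenate kinase of coenzyme A synthesis, Sort1, a sorting receptor, Sod2, the mitochondrial superoxide dismutase, and Dhdh followed, with RNA-seq values between 37.8 and 94.7 RPKM. These 8 genes differed widely in footprints. Sod2 had 947 and 721 RPKM in Y1CTL and 886 and 858 RPKM in Y1cKO Ribo-seq, while Lrrc58 had 39.9 and 46.9 and then 56.3 and 40.6 RPKM from a similar amount of RNA.

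The first comparison asked whether a long 3′ UTR goes with a higher or lower density of footprints on the coding region, relative to the transcript level. Translational efficiency (TE), the Ribo-seq RPKM over the RNA-seq RPKM on the log2(RPKM + 0.5) scale, had a median of 0.87 in the long 3′ UTR genes and 0.88 in the remaining genes, a ratio of 1.82 against 1.84. Over the 8 pairings of a Ribo-seq with an RNA-seq library of the same genotype, the difference of the medians lay between −0.04 and 0.01. It was smaller than 0.0753, the SD between libraries of the difference in median log2 level, with the 2 assays combined. That SD is another measure than the spread of the TE difference itself. Tested gene by gene against the median gene with limma, 264 of 644 had a higher TE at an adjusted p under 0.05 (41.0%), where 40.3% of all 10227 genes did, and 257 had a lower TE (39.9%), where 37.6% of all genes did. Both shares were near the background. The SD of log2 TE across genes was 1.59 in the class and 1.42 in the remaining genes.

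The 2 assays were scaled by different lengths, RNA-seq by the whole transcript and Ribo-seq by the coding region. Counted as reads, with no length, the long 3′ UTR genes had a median of 0.408 footprints per RNA-seq read (both in RPM), against 0.962 in the remaining genes. The difference of the log2 medians was then −1.21. Of the 644 genes, 452 were below the median gene (70.2%; 35.2% of all genes) and 74 above it (11.5%; 40.8% of all genes) at a limma adjusted p under 0.05. RNA-seq reads from the 3′ UTR count in the denominator of this ratio, while footprints come from the coding region. The transcript was a median of 4.73 times as long as its coding region in the class and 1.79 times in the remaining genes.

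TE and footprints per RNA-seq read were also compared between classes of 3′ UTR length, among genes with a coding start before base 600. Median log2 TE was 1.03 in 2968 genes with less than 500 bases, 0.89 at 500 to 1000 bases, 0.84 at 1000 to 2000, 0.84 at 2000 to 4000, and 0.81 in 461 genes of 4000 to 6000 bases. It was 1.02 in 118 genes of 6000 to 8000 bases and 1.23 in 65 genes of 8000 bases or more. The range over pairings of libraries was 0.64 to 0.87 for 4000 to 6000 bases and 1.04 to 1.36 for 8000 or more, which did not overlap. That of 6000 to 8000 bases, 0.74 to 1.05, overlapped both. The pairings share libraries, and their ranges do not measure the spread across genes. Relative to the median gene, the quartiles across genes were −0.99 to 0.90 at 4000 to 6000 bases and −0.79 to 1.31 at 8000 or more. Footprints per RNA-seq read went down from each of the 7 classes to the next, with medians of 1.52, 1.09, 0.841, 0.628, 0.427, 0.374 and 0.331. RNA-seq reads from the 3′ UTR count in the divisor, so a fall with length is in part built into this ratio. Median transcript length over coding length was 1.31 in the first class and 7.13 in the last. Within the 644 genes Spearman's rho between 3′ UTR length and log2 TE was 0.06, across genes that share libraries. Between log2 TE and transcript length over coding length, the ratio of the divisors of the assays, rho was 0.48. In the remaining genes the latter was 0.32.

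**Figure D2:**
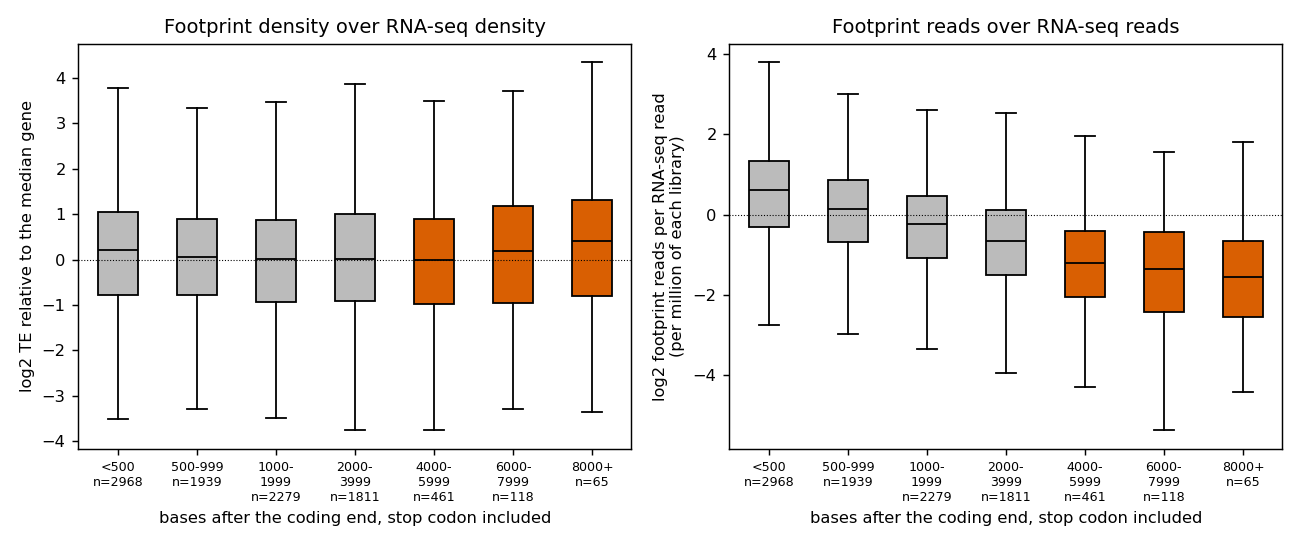
TE relative to the median gene (left) and log2 footprint reads per RNA-seq read (right) in classes of the length after the coding end, for genes with a coding start before base 600; orange boxes hold the long 3′ UTR genes, n is the number of genes, boxes span the quartiles with the median as a line and whiskers reach 1.5 box heights. Genes without footprints are left out of the right panel, where the medians step down with length, while those on the left lie between −0.01 and 0.40. The divisor on the right includes RNA-seq reads from the 3′ UTR, so part of that step is built in.

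The length of the coding region separated the class far more than that of the 3′ UTR, with a rho of −0.48 between coding length and log2 TE in the long 3′ UTR genes and −0.56 in the remaining genes. Coding length also enters the Ribo-seq RPKM as its divisor. In 122 long 3′ UTR genes with coding regions under 900 bases the median log2 TE was 2.10, against 1.89 in the remaining genes of that size. For coding regions of 900 to 1800 bases it was 1.11 (255 genes) against 1.05, for 1800 to 3000 bases 0.61 (172 genes) against 0.37, and for 3000 bases or more −0.55 (95 genes) against −0.44. Long 3′ UTR genes were thus higher in 3 of the 4 classes, by 0.06 to 0.24, and lower in the longest by 0.11. Split by abundance, the median log2 TE was 0.91 in 113 long 3′ UTR genes of 1 to 3 RPKM against 0.47 in the remaining genes, 0.83 (352 genes) against 0.82 at 3 to 10 RPKM, and 1.00 (149 genes) against 0.82 at 10 to 30 RPKM. Above 30 RPKM the order turned, with 0.67 in 30 long 3′ UTR genes and 1.51 in the remaining genes. There the median coding length was 1821 bases in the long 3′ UTR genes and 1014 in the remaining genes. The RNA-seq RPKM that made the split is also the divisor of TE.

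**Figure D3:**
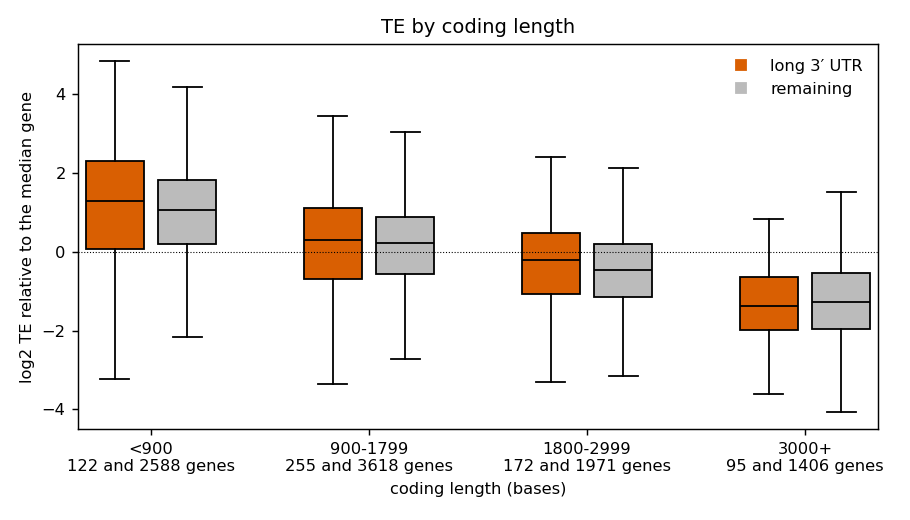
TE relative to the median gene (log2) in 4 classes of coding length for the long 3′ UTR genes (orange) and the remaining genes (grey); boxes span the quartiles with the median as a line, whiskers reach 1.5 box heights, and the first number under each class counts the long 3′ UTR genes. TE steps down with coding length in both, from medians of 1.28 and 1.07 under 900 bases to −1.37 and −1.27 at 3000 bases or more.

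The 8 genes of highest TE had coding regions of 198 to 1221 bases. Ndufb2, a subunit of respiratory complex I with 315 coding bases, had 4.16 and 3.83 RPKM in Y1CTL and 4.05 and 5.47 RPKM in Y1cKO RNA-seq. Its Ribo-seq values were 488 and 373 RPKM in Y1CTL and 554 and 452 RPKM in Y1cKO, a ratio of 95.6. RNA-seq RPKM divides by the whole deposited transcript, and whether the tissue held a shorter form of any of these genes was not tested. Rps15a, a protein of the small ribosomal subunit, had 6.20, 13.1, 8.19 and 7.45 RPKM in the RNA-seq libraries, Y1CTL first, and 460, 377, 492 and 465 RPKM in Ribo-seq. Serbp1 had 6.97 to 9.60 RPKM in RNA-seq and 307 to 370 RPKM in Ribo-seq. Glo1, the glyoxalase that detoxifies methylglyoxal, Ctsl, a lysosomal protease, Serp1, a protein of the endoplasmic reticulum translocon, Eif1ax, a translation initiation factor, and Timm17a, a subunit of the mitochondrial import channel, came next, with log2 TE of 5.17, 4.98, 4.57, 4.56 and 4.54. In none of these 8 genes did an RNA-seq value reach the lowest Ribo-seq value. Each passed the test against the median gene (limma, adjusted p at most 5.07e-07). Both follow from the pick of these genes by TE and are no further support. Counted as reads with no length, Serp1 no longer passed.

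At the low end, the 8 genes of lowest TE whose Ribo-seq mean reached 0.5 RPKM had coding regions of 783 to 11898 bases. Usf3, a basic helix-loop-helix transcription factor with 6663 coding bases, had 10.9 to 12.4 RPKM in RNA-seq and 0.430 to 0.581 RPKM in Ribo-seq, a log2 TE of −3.58. Kmt2a, a histone H3 methyltransferase, had 11.5 and 18.3 RPKM in Y1CTL and 12.0 and 13.5 RPKM in Y1cKO RNA-seq, and 1.77 and 1.69 and then 1.36 and 1.43 RPKM in Ribo-seq. 2900026A02Rik, Pcnx, Usp31, a ubiquitin protease, Btbd7, Nova2, a splicing regulator, and Fam78b followed, at log2 TE of −2.51 to −1.90. Each was below the median gene (limma, adjusted p at most 3.05e-05), and in each the Ribo-seq values lay below all RNA-seq values. This too follows from the pick by TE.

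Of the 644 genes, 17 had no footprints (2.64%), in that they were in none of the 4 Ribo-seq tables, which list no gene at 0 and in which absence was taken as 0 reads. Of the remaining genes 51 had none (0.532%). Singled out after their values were seen, 14 of the 17 were olfactory or vomeronasal receptor genes, which serve the nose, among them Olfr839-ps1, Olfr639, Vmn2r53 and Olfr1307. Such receptors made up 2.17% of the class and 0.230% of the remaining genes, where 21 of 22 were without footprints. Vmn2r53 had 10.9 and 9.87 RPKM in Y1CTL and 7.77 and 7.41 RPKM in Y1cKO RNA-seq, with 18622 bases after its coding end. The other 3 were Tmem72, Eif3j1 and Sap18. Tmem72, with 15991 bases after its coding end, had 32.8, 30.1, 27.7 and 24.5 RPKM in the RNA-seq libraries, among the higher levels of the class. Eif3j1, an initiation factor subunit, had 1.30 to 2.89 RPKM in RNA-seq. Its near-identical copy Eif3j2, at 0 to 1.515 RPKM in RNA-seq, was also without footprints. Whether reads are shared between the copies was not tested. Where in these transcripts the RNA-seq reads lie cannot be read from 1 value per gene. Without the receptor genes the median TE of the class was 0.03 above that of the remaining genes, in place of 0.01 below.

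Some genes that act on 3′ UTRs were themselves of the class. In a list of 32 genes of miRNA effectors and deadenylation, all expressed, 7 had a long 3′ UTR (21.9%), namely Ago1, Ago2, Ago3, Tnrc6b, Ddx6, Edc3 and Dcp2. Of 35 expressed RNA-binding proteins of 3′ UTRs, 7 had one (20.0%), namely Elavl1, Qk, Celf1, Celf2, Hnrnpd, Rc3h1 and Rc3h2. Among the miRNA effectors 2 were above and 4 below the median gene (limma, adjusted p under 0.05), beside 40.3% and 37.6% of all genes. The median of the 7 was −1.06 relative to the median gene, beside 0.05 in the remaining genes and −0.89 in the list's other expressed members. Ago2, which cleaves targets of small RNAs, had 15.7, 18.2, 15.8 and 14.3 RPKM in RNA-seq and 13.2, 13.4, 12.6 and 14.6 RPKM in Ribo-seq, with 11067 bases after its coding end. Tnrc6b, its partner in silencing, had 11.2 to 15.6 RPKM in RNA-seq and 7.94 to 8.72 RPKM in Ribo-seq. Among the RNA-binding proteins 5 were above and 2 below, with a median of 1.13, and −0.31 in the list's other members. Qk, a regulator of splicing and mRNA stability, had 27.9, 24.7, 31.5 and 38.2 RPKM in RNA-seq and 176, 205, 182 and 184 RPKM in Ribo-seq.

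Signaling lists held further members. Insulin and PI3K signaling had 11 of 40 expressed genes in the class (27.5%), among them Insr, the insulin receptor, Igf1r, Pik3ca, Pdpk1, Foxo1, Foxo3 and Rictor. Of these 11, 1 was above and 8 below the median gene in TE, beside 40.3% and 37.6% of all genes. The median of the 11 was −0.50, and −0.78 in the list's other members. Insr had 25.6, 17.8, 28.7 and 30.4 RPKM in RNA-seq and 39.9, 31.5, 31.9 and 32.9 RPKM in Ribo-seq. BMP and TGF-β signaling had 5 of 34, with Acvr1c, Tgfbr2 and Smad5 the most abundant, of which 2 were above and 1 below. Wnt signaling had 3 of 35, the receptors Fzd4 and Lrp6 and the polymerase Tnks, all below. Their median was −1.02, beside −1.08 in the list's other members. Small GTPases had 5 of 68, all above, with a median of 1.15, and 1.02 in the list's other members. Rab11b, a GTPase of recycling endosomes, had 11.2 to 21.8 RPKM in RNA-seq and 134 to 160 RPKM in Ribo-seq. E3 ubiquitin ligases had 7 of 62, 1 above and 5 below, with a median of −0.75, and −0.71 in the list's other members. Adipocyte transcription factors had 3 of 44, Nfib, Nfia and Prdm16, all below. Their median was −0.39, beside −0.84 in the list's other members. The m6A list had 1 of 18, the demethylase Alkbh5, and cleavage and polyadenylation had 1 of 22, Nudt21. None of 41 expressed ribosomal proteins of a list that does not hold Rps15a, 14 adipocyte markers, 8 macrophage, 8 endothelial or 8 fibroblast markers expressed was in the class, and no mammary epithelial marker passed the expression threshold. In all, 6.30% of expressed genes were in the class.

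The second comparison asked how footprints and transcripts of the class differed between Y1cKO and Y1CTL. No long 3′ UTR gene passed an adjusted p under 0.05 in TE, in Ribo-seq or in RNA-seq (limma, Benjamini-Hochberg over all genes tested), and of all genes 0% did in each of the 3 comparisons. The filter on low values, a mean of 0.5 RPKM in each assay tested, left all 644 genes for RNA-seq and 625 for Ribo-seq and TE. The 19 left out were the 17 without footprints, Snhg11 and Stox2. These counts rest on all libraries. Without Y1CTL replicate 1, which leaves the library with lymphocyte markers as the single Y1CTL RNA-seq library and assumes that it varies like the others, 21 of 625 passed in TE (3.36%; 8.14% of all genes), 2 in Ribo-seq (0.320%; 0.406%) and 8 of 644 in RNA-seq (1.24%; 5.33%). Without any other replicate the count stayed at 0 in the class.

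TE between genotypes shifted slightly less in the long 3′ UTR genes than in the remaining genes. All genes tested had a median log2 change of −0.17 in TE, 0.17 in RNA-seq and 0.01 in Ribo-seq, Y1cKO over Y1CTL. The long 3′ UTR genes had a median of −0.15 in TE and the remaining genes −0.19. Their difference of 0.04 lay between 0.03 and 0.10 in the 16 pairings of ratios, which share libraries. It was smaller than 0.0535, the SD between libraries of 1 genotype of the difference in median levels, with both assays combined. At an unadjusted p under 0.05 there were 25 of 625 (4.00%), where 8.66% of all genes were. A single gene, Pm20d1, was higher by more than 1 on the log2 scale at that p (0.823% of all genes), and 0 were lower (2.31% of all genes). Leaving out Y1CTL replicate 1 made this count 49 (7.84%; 16.9% of all genes). It was 3 when Y1CTL replicate 2 was left out (5.46% of all genes) or Y1cKO replicate 2 was (2.90%), and 0 in the absence of Y1cKO replicate 1 (1.22%). Both Y1cKO ratios lay above both Y1CTL ratios in every pairing for 25 genes (4.00%; 5.40% of all genes) and below for 99 (15.8%; 20.8% of all genes). When the libraries of each assay were scaled to the same median, 321 genes had a change above 0 and 304 below, in place of 195 and 430.

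Footprints alone differed little. The median log2 change in Ribo-seq was −0.01 in the long 3′ UTR genes and 0.01 in the remaining genes, a difference of −0.02. Over 4 pairings it was −0.02 to −0.01, and the SD between libraries of the difference in median levels was 0.0224. At an unadjusted p under 0.05 there were 6 of 625 (0.960%; 2.75% of all genes). None was higher (0.135% of all genes) or lower (0.159%) by more than 1 at that p. Together they came to 1 when Y1CTL replicate 1 (1.54% of all genes) or Y1cKO replicate 2 (0.661%) was left out, and to 2 when Y1CTL replicate 2 was (0.984%). In 73 genes both Y1cKO libraries lay above both Y1CTL libraries (11.7%; 15.4% of all genes) and in 93 below (14.9%; 14.1% of all genes).

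In RNA-seq the long 3′ UTR genes had a median log2 change of 0.11 and the remaining genes 0.18, a difference of −0.07. It lay between −0.09 and −0.06 in the 4 pairings, which share libraries. Another measure, the SD between libraries of 1 genotype of the difference in median levels, was 0.0486. With 2 libraries per group, a shift by genotype was not tested. The difference was negative in all 4 classes of coding length (−0.09 to −0.04) and the 3 of abundance below 30 RPKM (−0.09 to −0.08). At 30 RPKM and above it was 0.08. At an unadjusted p under 0.05 there were 32 of 644 (4.97%; 11.8% of all genes). Past the line of 1 on the log2 scale at that p, 3 were higher (2.49% of all genes), Apcdd1, Slc2a13 and Timp4, and 1 was lower (0.860%), Dio2. These 4 became 22 when Y1CTL replicate 1 was left out (3.42%; 11.5% of all genes), 2 for Y1CTL replicate 2 (0.311%; 6.71%) and 7 for Y1cKO replicate 2 (1.09%; 3.47%). With library medians made equal they were 3 higher and 2 lower, and the changes above and below 0 went from 442 and 202 to 270 and 374. In 225 genes both Y1cKO libraries lay above both Y1CTL libraries (34.9%; 36.9% of all genes) and in 64 below (9.94%; 10.7%). The long 3′ UTR genes were also more alike in their changes, with an SD across genes of 0.303 in RNA-seq and 0.341 in TE, against 0.415 and 0.466 in the remaining genes, and 0.192 against 0.207 in Ribo-seq. They had more RNA-seq reads per gene, as given above, and the part of this in the narrower spread was not tested.

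**Figure D4:**
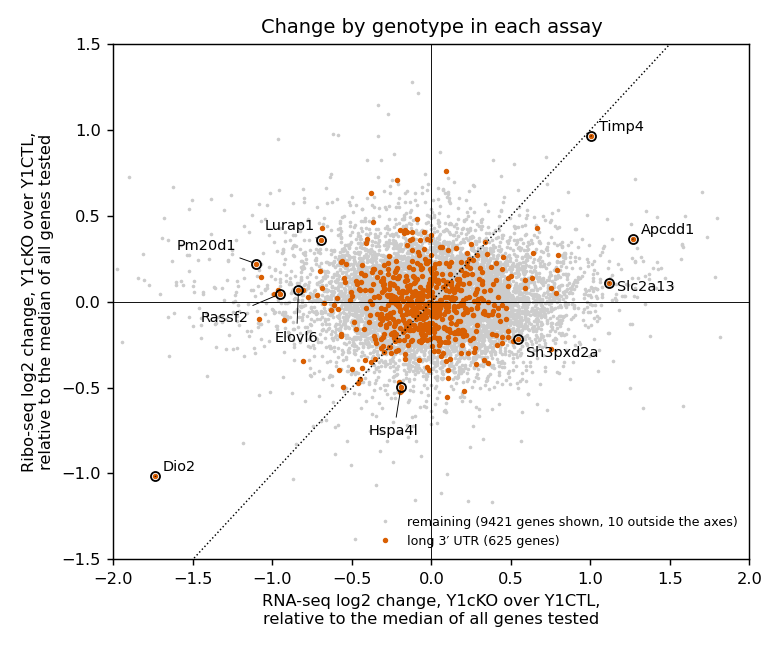
Log2 change of Ribo-seq (vertical) against RNA-seq (horizontal), Y1cKO over Y1CTL and relative to the median of all genes tested, for 625 long 3′ UTR genes (orange) and the remaining genes (grey); the dotted line marks equal change in both assays. Most points spread along the horizontal axis, with Timp4 near the dotted line and Dio2 at the lower left.

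The 6 genes with the largest upward difference in TE in every pairing all had lower RNA-seq in Y1cKO without overlap (10.7% of all genes). Of them 3, Lurap1, Elovl6 and Ppp1r16b, also had higher Ribo-seq values without overlap (15.4% of all genes). Both assays enter TE, so a pick by TE change favours such genes and these counts are no further result. Pm20d1, a secreted enzyme that makes N-acyl amino acids, had 2.45 and 3.71 RPKM in Y1CTL and 1.31 and 1.39 RPKM in Y1cKO RNA-seq, with no overlap. Its Ribo-seq values were 10.7 and 7.65 RPKM in Y1CTL and 11.1 and 10.3 RPKM in Y1cKO, which overlapped. Relative to the median gene, its TE change was 1.33 (unadjusted p = 0.0123, limma adjusted p = 0.563). Elovl6, whose RNA-seq values are given above, had 941 and 926 RPKM in Y1CTL and 1011 and 955 RPKM in Y1cKO Ribo-seq, a TE change of 0.91 (limma adjusted p = 0.563). Rassf2, a Ras-association domain protein, had 6.75 and 11.4 RPKM in Y1CTL and 5.30 and 4.51 RPKM in Y1cKO RNA-seq, beside 48.1 and 47.3 and then 45.9 and 53.3 RPKM in Ribo-seq. Lurap1, Atg4d, a protease of autophagy, and Ppp1r16b completed the 6, at 1.07, 1.02 and 0.81. Atg4d had 3.10 and 3.62 RPKM in Y1CTL and 2.79 and 2.87 RPKM in Y1cKO RNA-seq, and 6.40 and 2.58 and then 7.10 and 6.30 RPKM in Ribo-seq. Leaving out Y1CTL replicate 2 took the TE change of Atg4d to 0.33, that of Rassf2 to 0.63 and that of Pm20d1 to 0.84, and leaving out Y1CTL replicate 1 took that of Atg4d to 1.71.

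In the opposite direction stood Sh3pxd2a, with 97.7 and 69.2 RPKM in Y1CTL and 145 and 127 RPKM in Y1cKO RNA-seq. Its Ribo-seq values were 51.4 and 51.6 RPKM in Y1CTL and 39.6 and 49.7 RPKM in Y1cKO. The groups did not overlap in either assay, and the TE change relative to the median gene was −0.75 (unadjusted p = 0.0133, limma adjusted p = 0.563). Slc35a3, a Golgi transporter of UDP-N-acetylglucosamine, had 2.65 and 2.99 RPKM in Y1CTL and 5.04 and 4.63 RPKM in Y1cKO RNA-seq, and 11.7 and 8.89 and then 9.14 and 8.26 RPKM in Ribo-seq. Pgm2l1, Prlr, the prolactin receptor, Ccnd2, a cyclin of the G1 phase, and Esr1, the oestrogen receptor α, followed at −0.72 to −0.68. Ccnd2 had 41.6 and 26.4 RPKM in Y1CTL and 57.7 and 47.5 RPKM in Y1cKO RNA-seq, and 118 and 187 and then 130 and 129 RPKM in Ribo-seq. Esr1 had 10.6 and 6.99 and then 15.7 and 11.5 RPKM in RNA-seq, and 29.6 and 36.6 and then 25.04 and 31.0 RPKM in Ribo-seq. The size of both differences rests on Y1CTL replicate 2, without which the TE change was −0.04 for Ccnd2 and −0.26 for Esr1, beside −1.32 and −1.10 without Y1CTL replicate 1. That of Slc35a3 was −0.46 without Y1CTL replicate 1, and that of Esr1 −0.40 without Y1cKO replicate 1.

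In Ribo-seq the largest separation upwards was that of Timp4, an inhibitor of metalloproteinases. It had 16.3 and 20.2 RPKM in Y1CTL and 50.9 and 25.5 RPKM in Y1cKO Ribo-seq, and 6.21 and 3.34 and then 9.42 and 12.7 RPKM in RNA-seq. Both assays were higher in Y1cKO without overlap, by 0.96 in Ribo-seq (limma adjusted p = 1.00) and 1.00 in RNA-seq (limma adjusted p = 0.402) relative to the median gene, and its TE change was −0.03. Without Y1cKO replicate 1 the Ribo-seq change was 0.43 and without Y1cKO replicate 2 it was 1.49, and without Y1CTL replicate 2 the RNA-seq change was 0.60. Ccdc167 had 2.97 and 2.61 RPKM in Y1CTL and 6.07 and 4.26 RPKM in Y1cKO Ribo-seq, a change of 0.76 that was 0.49 without Y1cKO replicate 1. Lower in Y1cKO were Ankrd12, with 2.41 and 3.11 and then 1.46 and 2.01 RPKM, and Hspa4l, a chaperone of the Hsp110 family, with 23.3 and 22.3 and then 14.3 and 18.1 RPKM. Neither overlapped between genotypes, which the pick required (14.1% of all genes were lower in this way), and neither passed the adjusted test.

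In RNA-seq Apcdd1, an inhibitor of Wnt signaling with 8904 bases after its coding end, had 6.57 and 3.02 RPKM in Y1CTL and 13.0 and 13.0 RPKM in Y1cKO. Its Ribo-seq values overlapped, at 11.5 and 23.3 RPKM in Y1CTL and 24.4 and 18.7 RPKM in Y1cKO. The RNA-seq change relative to the median gene was 1.26 (unadjusted p = 0.00710, limma adjusted p = 0.402), and 0.76 without Y1CTL replicate 2. Slc2a13, a myo-inositol transporter, Pard3b, a polarity protein, Fam102b and Egfr, the EGF receptor, were higher in both Y1cKO libraries by 1.12, 0.80, 0.79 and 0.78. Slc2a13 had 2.94 and 1.17 RPKM in Y1CTL and 7.004 and 4.05 RPKM in Y1cKO, and its change was 0.60 without Y1CTL replicate 2. Egfr had 7.94 and 6.24 RPKM in Y1CTL and 19.0 and 10.4 RPKM in Y1cKO, and its change was 0.41 without Y1cKO replicate 1. Lower in both Y1cKO libraries, Rel, an NF-κB subunit of immune cells, had 6.31 RPKM in the Y1CTL library with lymphocyte markers, replicate 2, and lower values in the other 3, down to 1.58 RPKM in a Y1cKO library. Its change was −1.08, −0.41 without that library and −1.75 without Y1CTL replicate 1. Gnao1, a G protein α subunit, had 8.46 and 12.2 and then 3.75 and 8.09 RPKM, a change of −0.99 that was −0.44 without Y1cKO replicate 1 and −1.54 without Y1cKO replicate 2.

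Dio2, the deiodinase that activates thyroid hormone in thermogenic fat, showed the lowest RNA-seq change of the class. It had 6.30 and 3.95 RPKM in Y1CTL and 1.51 and 1.21 RPKM in Y1cKO RNA-seq, a change of −1.74 relative to the median gene (unadjusted p = 0.00300, limma adjusted p = 0.402). In Ribo-seq it had 7.50 and 1.87 RPKM in Y1CTL and 1.98 and 1.39 RPKM in Y1cKO, where the groups overlapped and 1 Y1CTL library held the high value. Dio2 is 1 of 4 long 3′ UTR genes among 15 beige and brown adipocyte markers, with Elovl6, Prdm16 and Pank1. All 4 had an RNA-seq change below that of the median gene, with a median of −0.95, beside −0.06 in the class. Most of the class lay on that side too, with 374 of 644 changes below 0 once library medians were made equal. Their median change was 0.02 in Ribo-seq and 0.82 in TE, and 0 passed the adjusted test in any of the 3. Pank1, a pantothenate kinase, had 5.69 and 13.9 RPKM in Y1CTL and 2.98 and 6.86 RPKM in Y1cKO RNA-seq, and 78.4 and 27.5 and then 51.4 and 51.8 RPKM in Ribo-seq. The genotypes overlapped in both assays. Prdm16, a regulator of beige fat, differed little, with 3.41 and 4.47 and then 4.09 and 4.35 RPKM in RNA-seq. Its values overlapped, and its change was below only relative to the median gene. The whole marker list, with none of its 15 genes at 0, summed to 2233 and 3549 RPKM in Y1CTL and 648 and 1842 RPKM in Y1cKO RNA-seq. In Ribo-seq it summed to 15330 and 5583 RPKM in Y1CTL and 12320 and 10180 RPKM in Y1cKO, so that the libraries of 1 genotype differed more than the genotypes did. Sod2, no member of that list, had 67.6 and 88.9 RPKM in Y1CTL and 39.1 and 63.0 RPKM in Y1cKO RNA-seq.

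**Figure D5:**
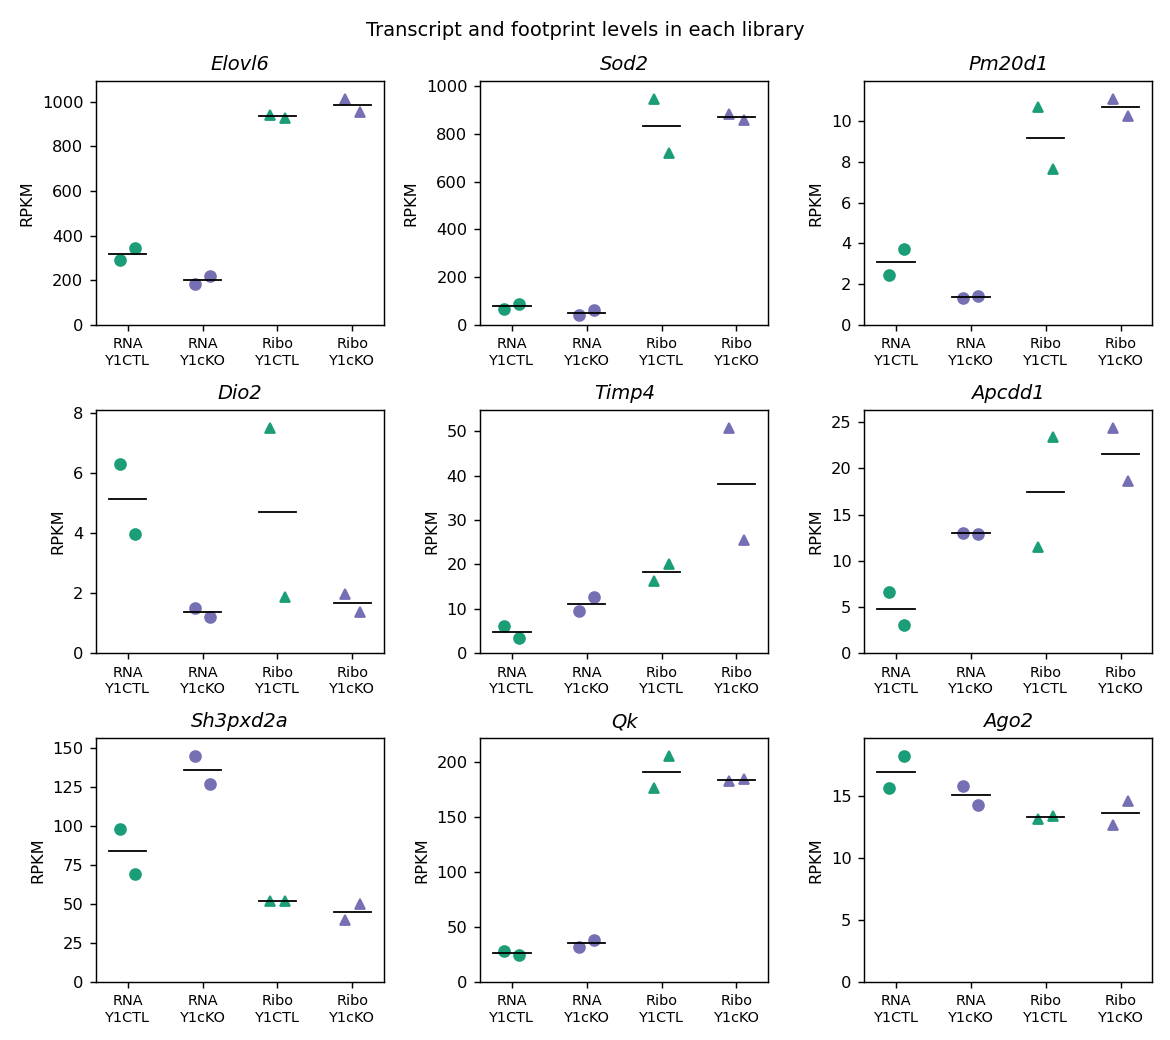
RPKM of 9 long 3′ UTR genes in each library, by assay and genotype, with 1 point per library and a line at the mean of the 2 libraries (circles RNA-seq, triangles Ribo-seq, green Y1CTL, violet Y1cKO). Elovl6, Pm20d1 and Dio2 are lower in both Y1cKO RNA-seq libraries, Timp4 is higher in Y1cKO in both assays, and Qk and Ago2 differ more between assays than between genotypes.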

How the data were processed

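RNA-seq and Ribo-seq gave 8 libraries, 2 per genotype and assay, from lysates that were split between the assays per the labels. The authors trimmed the reads, mapped them with HISAT2 2.2.1 to mm8 (per the submitters' processing notes) and deposited RPKM values for 1 transcript per gene, with its length, coding start and coding end. The deposited RPKM divides by transcript length in RNA-seq and by coding length in Ribo-seq. All values were whole reads within 0.01 read, so depth could be computed back. The smallest distance from coding end to transcript end was 3 bases, so the stop codon is counted with the 3′ part. Genes missing from a Ribo-seq table were given 0. The header of each Y1cKO RNA-seq table carries the number of the other replicate, and the sample labels were followed.

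The class of genes, the gene lists and the rule for named genes were chosen with earlier results of these data known. The rule named the 8 longest, 8 most abundant, 8 highest and 8 lowest in TE with a mean of at least 0.5 RPKM in Ribo-seq, the 6 largest changes per assay and direction without overlap between genotypes, up to 3 per list, and those nearest each threshold. Values on the log2(RPKM + 0.5) scale were tested by limma 3.58.1 in R 4.3.3, using an intensity trend, and p-values were adjusted by Benjamini-Hochberg. TE level was centred on the median gene, and TE change was the interaction of assay and genotype over 8 libraries, with no block. Changes of single genes are given relative to the median of all genes tested, and fold changes understate those of low genes. An exact test of 2 against 2 libraries cannot go below p = 0.333. The tests were checked on simulated data. Alternatives were other pseudocounts, filters, scalings, voom on reads, replicate blocks, left-out replicates and other thresholds for the class. Plots and summaries used Python 3.11.15, pandas 2.3.3, scipy 1.17.1 and matplotlib 3.10.9.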

Additional observations from a re-analysis of the deposited data

How the results depend on the processing

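The difference in median log2 TE level between long 3′ UTR genes and the remaining genes stayed within 0.0753, the SD given above, with exceptions. These were reads with no length (−1.21, with 11.5% above and 70.2% below the median gene), a 3′ UTR of at least 6000 bases (0.17) and 5 RPKM or more (−0.19). Scaling by the trimmed mean of M values without centring gave 64.1% above and 19.6% below. Those shares are counted from a TE of 0 and not from the median gene, and the share of all genes was not computed. The difference between the medians of the long 3′ UTR genes and the remaining genes was −0.009 in that setting. The lowest pairing gave a median of 0.64 for 1000 to 2000 bases and 0.74 for 6000 to 8000 bases. The count of long 3′ UTR genes past both lines was 1 for TE change and became 2 with a pseudocount of 0.1, 0 with 1, 2 with equal library medians, 3 with voom, 10 at 3000 bases, 0 at 6000 bases, 2 with no limit on the coding start and 0 at 5 RPKM. For Ribo-seq it was 0 and became 1 with voom and 2 at 3000 bases. For RNA-seq it was 4 and became 7 with a pseudocount of 0.1, 11 with voom, 9 at 3000 bases, 1 at 6000 bases and 0 at 5 RPKM. Leaving out 1 replicate gave 0 to 49 for TE, 0 to 2 for Ribo-seq and 2 to 22 for RNA-seq (1.22% to 16.9%, 0.538% to 1.54% and 1.43% to 11.5% of all genes), and 0 to 21, 0 to 2 and 0 to 8 at an adjusted p under 0.05. The cause of these moves was not tested beyond the smaller number of genes or libraries.

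Replicate numbers were tried as a block. With the replicate block, 39.1% were above and 39.0% below the median gene in TE, and the counts past both lines were 1 for TE, 0 for Ribo-seq and 4 for RNA-seq. Deviations of same-numbered libraries correlated at −0.14 in Y1CTL and −0.24 in Y1cKO over 10227 genes, so a crossed replicate block was added after seeing the data, with 5 past both lines in TE, and 1 when crossed in Y1cKO only. No long 3′ UTR gene passed an adjusted p under 0.05 with any block. Depth limits the low genes of Y1CTL RNA-seq most, and 2 libraries per group leave few degrees of freedom.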
